A study of Mus musculus with 12 samples.

Results

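The step from 3 h to 12 h of beta-estradiol was taken as the difference between the 2 C10 arrays titled for 12 h and the 2 titled for 3 h, so that 4 of the 12 arrays of the series carried the comparison. C10 is a mouse cell line with an inducible form of the transcription factor C/EBPα, and the series title describes a B cell line being turned into macrophages. Both groups held the inducible factor and both were given estradiol, so they differed in the time of treatment alone, as far as the labels say. Vehicle C10, given ethanol for a time the labels do not state, entered neither mean and was the only ethanol group of the series. The other arrays were C10 at 24 h and 48 h, and HAFTL, a fetal liver line transformed with Ha-ras, given estradiol for a time the labels do not state. The labels name 1 C10 line, so any property of that line is shared by both groups. Each condition had 2 arrays. The labels do not state whether a pair came from different cultures. The p-values therefore reflect only the scatter within pairs, taken over all 12 arrays of the series, and that scatter may be technical.

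B cells are lymphocytes built around a gene programme held by the factors Pax5 and Ebf1, which keep up the pre-B cell receptor, the interleukin-7 receptor and the machinery that presents antigen on MHC class II. C/EBPα is a regulator on which the making of granulocytes and of many macrophages depends. Together with PU.1, the product of Spi1, it binds enhancers of myeloid genes, it is known to restrain E2F-driven cell division, and it can turn B cells into macrophage-like cells when forced into them.

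Signals are array intensities after quantile normalisation with a floor of 16, and changes are differences of mean log2 signal. A gene was tested where it exceeded a filter level of 74.6 (6.22 in log2) on at least 2 of the 12 arrays. A gene under that level on both arrays of 1 time, with its mean log2 signal above it at the other, is given a lower bound of its fold. A gene under it on all 4 arrays is given none. The arrays of the 2 times stood apart from each other more than duplicates did. Pearson's correlation of log2 signal over the 11696 genes tested was 0.979 within the 12 h pair and 0.977 within the 3 h pair, against 0.946 to 0.948 between times, and genes are not independent replicates. The ratio of 5′ to 3′ signal of Actb, a sign of RNA integrity, was 0.801 and 0.848 at 12 h and 0.784 and 0.746 at 3 h, and that of Gapdh 1.17 and 1.25 at 12 h and 1.32 and 1.18 at 3 h. The 18S rRNA control signal was 922 and 1823 at 12 h and 353 and 9866 at 3 h, so the second 3 h array stood out, and counts without it are given where they matter. The probe set for Cebpa lay at the floor of 16 on both 12 h arrays and at 16 and 34.6 on the 3 h arrays, under the level at which signals were read, so it checks nothing about the introduced factor. Esr1, the oestrogen receptor gene, read 197 and 240 at 12 h against 277 and 176 at 3 h, with no call (-0.02 ± 0.26 in log2 units, SE, n = 2 per group, limma adjusted p = 0.961). RNA was measured in bulk, and fewer cells of a kind cannot be told apart from less RNA of that kind per cell.

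Of 11696 genes tested, 1944 were higher at 12 h than at 3 h (16.6% of genes tested) and 1937 were lower (16.6%), 33.2% in either direction, at a limma Benjamini-Hochberg adjusted p below 0.05. The changes were mostly modest, with a median absolute log2 change of 0.72 among higher and 0.60 among lower genes. At 2-fold or more the balance tilted upward, with 585 genes higher (5.0%) and 347 lower (2.97%). At 4-fold or more there were 104 higher and 78 lower genes, and at 8-fold or more 22 and 16. Both 12 h arrays lay above both 3 h arrays for 3652 genes (31.2%) and below them for 4228 genes (36.1%), called or not. With each array scaled to its poly-A spike-in transcripts instead, 280 genes were higher and 139 lower, so that higher genes made up 66.8% of the calls against 50.1% otherwise. The median log2 change over all genes hardly moved, at 0 under this scaling against -0.04. Requiring a minimum log2 change of 1 gave a similar share, 66.85%. Mean log2 spike-in signal differed within pairs, with 7.60 against 7.44 (12 h), 7.69 against 7.37 (3 h) and 8.18 against 7.14 (48 h). How far this widened the spread and so lowered the number of calls was not tested. Leaving out 1 of the 4 arrays left 1428 to 1653 genes higher and 1285 to 1320 lower, with the fewest in both directions without the first 12 h array.

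**Figure D1:**
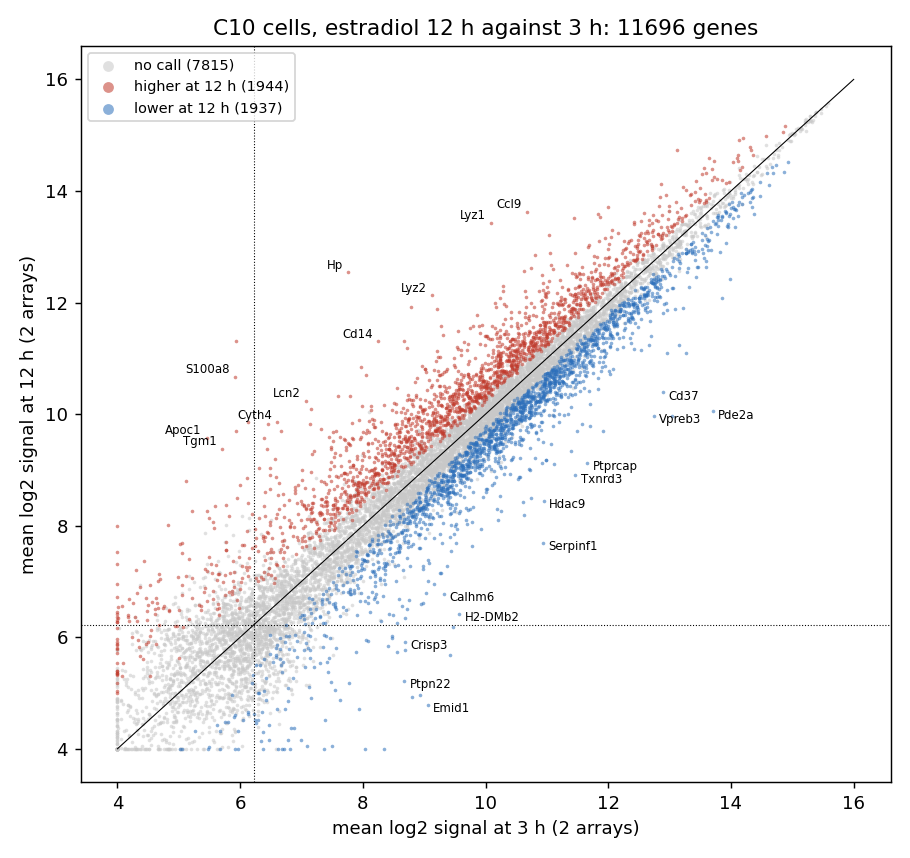
Mean log2 signal of each of the 11696 genes tested at 12 h (vertical axis) against 3 h (horizontal axis), each the mean of 2 arrays; red points are the 1944 genes called higher at 12 h, blue points the 1937 called lower, and grey points the rest. Dotted lines mark the filter level of 6.22, the diagonal marks equal signal, and the labelled genes, such as Hp and Lyz1 above the diagonal and Pde2a and Serpinf1 below it, are among the largest changes in each direction.

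The largest measured rise was that of Hp, which encodes haptoglobin, a haemoglobin-binding plasma protein also stored in neutrophil granules. Hp read 6129 and 5786 at 12 h against 299 and 158 at 3 h. The groups were far apart, and the fitted rise was 4.78 ± 0.49 in log2 units (SE, n = 2 per group, limma adjusted p = 0.000394). Errors given with log2 changes below are SEs of the same fit. Mmp13, a collagenase gene, read 906 and 909 at 12 h and 99.4 and 77.8 at 3 h, a rise of 3.37 ± 0.16. Anxa3, an annexin gene of neutrophils, read 4050 and 3686 at 12 h against 448 and 432 at 3 h. Anxa3 stood higher at 12 h than at 24 h, where it read 3143 and 2981, whereas Hp and Mmp13 were still far below their later signals of 18156 and 18193 for Hp and 11300 and 11351 for Mmp13 at 24 h.

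Both lysozyme genes rose. Their sequences are near-identical, so how far each probe set also reads the other gene is uncertain. Lyz1 read 11198 and 10833 at 12 h against 1109 and 1066 at 3 h, a rise of 3.34 ± 0.07. Lyz2, the lysozyme of macrophages and granulocytes, read 4593 and 4356 at 12 h against 555 and 561 at 3 h, a rise of 3.00 ± 0.14. Ccl9, a chemokine gene of myeloid cells, read 12895 and 12444 at 12 h and 1628 and 1657 at 3 h, a rise of 2.95 ± 0.12.

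Cyth4, which encodes a cytohesin that activates ARF GTPases, was as bright in vehicle C10 as at 12 h. It read 997 and 855 at 12 h against 84.1 and 113 at 3 h, a rise of 3.24 ± 0.16, but vehicle C10 read 869 and 1014. The 12 h arrays thus overlapped those of vehicle C10, and the low point lay at 3 h.

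**Figure D2:**
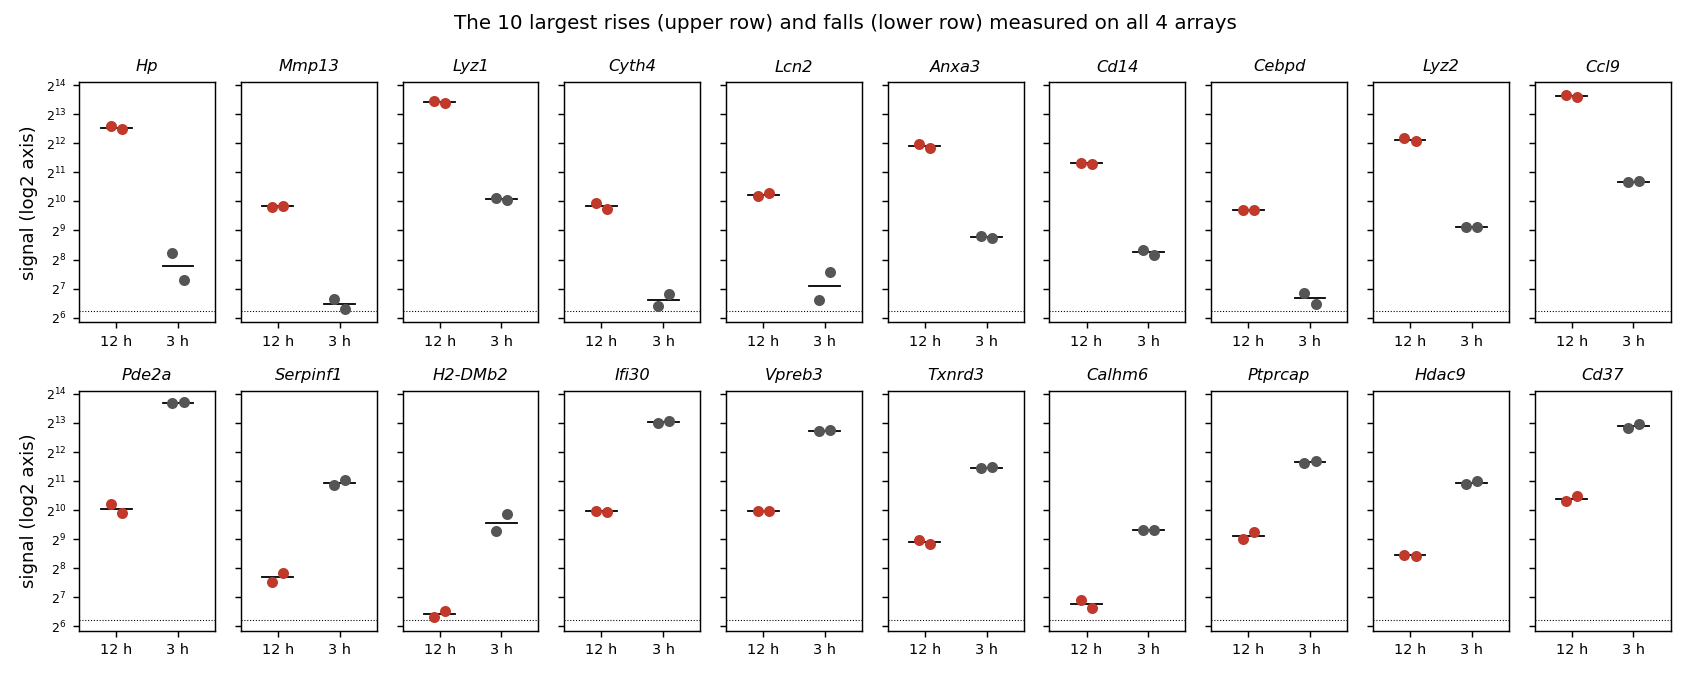
Signal on each array (points, log2 axis) at 12 h (red, left) and 3 h (grey, right) for the 10 largest rises (upper row) and the 10 largest falls (lower row) among called genes measured on all 4 arrays; bars are the means of the log2 values of 2 arrays and the dotted line is the filter level. In every panel both 12 h points lie on the same side of both 3 h points, as the rule that picked these genes required.

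Of 12 neutrophil granule and secretory genes of the granulocyte list that were tested, 9 rose, none fell and 3 missed the threshold. Their median log2 change was 1.92 against -0.04 over all genes tested, of which 16.6% rose and 16.6% fell. With no filter on dim genes the median was 0.93 over 22 genes, of which 8 rose. With genes that were dim in 1 group set at their bound and those dim in all 4 arrays left out, the median was 2.63 over 10 genes. S100a8, which encodes a subunit of the neutrophil protein calprotectin, read 1494 and 1765 at 12 h and was under the filter level at 3 h with 60.6 and 60.5, so it rose at least 21.8-fold (limma adjusted p = 0.000625). Camp, the cathelicidin gene of secondary granules, read 969 and 879 at 12 h against 65.0 and 74.6 at 3 h, at least 12.4-fold higher (adjusted p = 1.31e-06). Lcn2, the lipocalin that sequesters bacterial siderophores, read 1155 and 1254 at 12 h against 96.4 and 190 at 3 h, a rise of 3.15 ± 0.38. Its signal was near that of 24 h, with 1379 and 1459, and down to 83.5 and 78.7 at 48 h, so Lcn2 was lower by 4.13 ± 0.38 at 48 h than at 24 h (adjusted p = 0.000349).

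Part of the neutrophil list gave no readable signal at 12 h. Of the 22 granulocyte genes with a probe set, 8 lay above the filter level on both 12 h arrays and 6 on both 3 h arrays, and their summed signal was 34488 and 33285 at 12 h against 9346 and 9428 at 3 h. Cxcr2, the neutrophil chemokine receptor, Padi4, the histone deiminase of neutrophils, and Pglyrp1, a peptidoglycan recognition protein, were at the floor on all 4 arrays. With any 1 of the 4 arrays left out, 8 granulocyte genes were called higher.

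Promoters of the genes tested were searched for the C/EBP motif TTGCNNAA on both strands in the 250 bases before the transcription start, from RefSeq's promoter table for GRCm38.p6, in which 9476 of the 11696 genes tested were found. The motif was present in 8.28% of promoters of genes called higher and 7.86% of those called lower, against 7.24% of all genes tested. Among changes of 2-fold or more the share was 9.43% for rises and 12.95% for falls. In the granulocyte list 4 of 9 promoters held the motif and in the macrophage list 5 of 28, and among all 27025 promoters listed the share was 9.55%. The promoters compared differed in base composition. Median GC content was 59.6% over all genes tested, 60.4% for rises and 55.4% for falls of 2-fold or more. It was 55.2% in the granulocyte list and 48.0% in the macrophage list, and its part in these shares was not tested. A match is only a stretch of letters, and binding was not measured here. The promoters of Lcn2, Lyz1 and Ptgs2, which encodes the inducible cyclooxygenase and is described with the lipid genes, are shown because these genes rose and hold a match, set in capitals. They lie at chr2:32387740-32387989 on the minus strand for Lcn2, chr10:117292869-117293118 on the minus strand for Lyz1 and chr1:150099781-150100030 on the plus strand for Ptgs2 (GRCm38.p6, written 5′ to 3′ in the direction of the gene). The match starts at base -216, -209 and -69 from the start in these 3 genes, and that of Ptgs2 reads the same on both strands.
Lcn2: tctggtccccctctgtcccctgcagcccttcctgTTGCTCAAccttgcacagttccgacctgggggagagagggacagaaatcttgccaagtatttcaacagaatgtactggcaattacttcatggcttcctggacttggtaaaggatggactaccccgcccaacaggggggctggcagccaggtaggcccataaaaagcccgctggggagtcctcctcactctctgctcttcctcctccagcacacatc
Lyz1: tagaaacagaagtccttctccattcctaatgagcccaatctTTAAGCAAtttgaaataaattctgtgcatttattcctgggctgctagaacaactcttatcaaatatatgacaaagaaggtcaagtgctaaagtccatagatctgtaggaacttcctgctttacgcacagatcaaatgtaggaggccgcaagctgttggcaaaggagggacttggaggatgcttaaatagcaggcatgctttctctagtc
Ptgs2: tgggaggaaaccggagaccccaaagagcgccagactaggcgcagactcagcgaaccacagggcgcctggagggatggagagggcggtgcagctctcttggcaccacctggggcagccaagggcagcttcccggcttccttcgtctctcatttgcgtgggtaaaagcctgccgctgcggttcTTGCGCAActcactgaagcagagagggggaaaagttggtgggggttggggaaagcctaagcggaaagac

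The search also found a match before genes that fell. Ifi30, Crisp3 and Il7r, all lower at 12 h, held it from bases -33, -71 and -174.

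Of 37 genes of the macrophage list tested, 17 rose, 6 fell and 14 missed the threshold, against 16.6% of all genes tested in each direction, with a median log2 change of 0.71 (0.72 over 27 genes with bounds), and 10 of the 37 were under the filter level on all 4 arrays. With the floor raised to 64 the median was 0.08, with 16 genes higher and 6 lower. Cd14, the co-receptor for bacterial lipopolysaccharide, read 2542 and 2524 at 12 h against 322 and 288 at 3 h, a rise of 3.06 ± 0.57 (adjusted p = 0.00516). Emilin2, an extracellular matrix glycoprotein gene, read 1948 and 1753 at 12 h and 276 and 226 at 3 h, a rise of 2.89 ± 0.12. Csf1r, the receptor for the macrophage growth factor M-CSF, read 715 and 646 at 12 h against 212 and 151 at 3 h, a rise of 1.93 ± 0.16. These genes had risen without reaching their later level, since at 24 h Cd14 read 22897 and 22467 and Csf1r 11529 and 11869.

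Other macrophage genes fell in the same step. Ifi30, the lysosomal thiol reductase of antigen processing, read 1008 and 988 at 12 h against 8261 and 8503 at 3 h, and fell by 3.07 ± 0.08 on the log2 scale. Vehicle C10 read 14039 and 13971. The other 5 falls of the list, named after their values were seen, were Mrc1, Cd36, Ccr2, Cd68 and Ctss. Cd68, a lysosomal glycoprotein of macrophages, read 145 and 127 at 12 h against 294 and 261 at 3 h, and fell by 1.03 ± 0.12, and Ccr2, the monocyte chemokine receptor, read 287 and 230 against 694 and 685, and fell by 1.42 ± 0.15. Itgam, which encodes the macrophage integrin CD11b, was under the filter level on all 4 arrays, with 16 and 16 at 12 h and 30.5 and 16 at 3 h. Marco, a scavenger receptor of macrophages, was at the floor on all 4. The list's summed signal over 40 genes was 45491 and 44319 at 12 h against 34610 and 34839 at 3 h.

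Genes of the phagocyte oxidase, the enzyme that makes superoxide, were split. Of 5 tested, 3 rose and 2 fell, against 16.6% of all genes tested in each direction. These counts were the same with any 1 of the 4 arrays left out. Ncf1, the organiser subunit, read 3054 and 3064 at 12 h against 598 and 636 at 3 h, a rise of 2.31 ± 0.09. Cybb and Cyba, which encode the membrane-bound core, rose by 0.86 ± 0.09 and 0.75 ± 0.07. Ncf4, which encodes another cytosolic subunit, fell to 960 and 1120 at 12 h, against 1613 and 1812 at 3 h (-0.72 ± 0.10), and the other fall was that of Rac2, the oxidase's GTPase. At 48 h all 3 of the risen subunits and Ncf4 were above vehicle C10.

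Regulators of the myeloid lineage mostly rose. Of 31 myeloid transcription factors tested, 19 rose, 1 fell and 11 did not pass, against 16.6% of all genes tested in each direction. The median was 0.73 (0.77 over 29 genes with bounds), and 18 rose with any 1 of the 4 arrays left out. Cebpd, a C/EBP family member induced in myeloid cells, read 841 and 829 at 12 h against 116 and 88.9 at 3 h, a rise of 3.04 ± 0.17 (adjusted p = 3.06e-05). Cebpb, which drives macrophage and stress genes, read 2258 and 2277 at 12 h and 661 and 910 at 3 h, a rise of 1.55 ± 0.16. Spi1, the PU.1 gene, read 5622 and 5619 at 12 h against 2889 and 2782 at 3 h, a rise of 0.99 ± 0.09. The course of Cebpb differed from that of Cebpd, since vehicle C10 read 1523 and 1947 for Cebpb, above the 3 h arrays, and 83.4 and 108 for Cebpd.

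Fosl2, an AP-1 subunit gene, read 894 and 769 at 12 h against 71.0 and 52.0 at 3 h and was at least 11.1-fold higher (adjusted p = 1.62e-05). Id2 and Id1 encode inhibitors that bind E proteins, the partners of B cell development. Id2 read 1220 and 1362 at 12 h against 180 and 206 at 3 h, a rise of 2.75 ± 0.12. Id1 read 948 and 874 at 12 h against 95.7 and 209 at 3 h, a rise of 2.69 ± 0.53 (adjusted p = 0.00677), and its 3 h arrays differed more than 2-fold from each other. The single fall, named after its value was seen, was Mitf, a factor of mast cells and osteoclasts, at 133 and 162 at 12 h against 344 and 473 at 3 h. Cebpe was not analysed here.

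**Figure D3:**
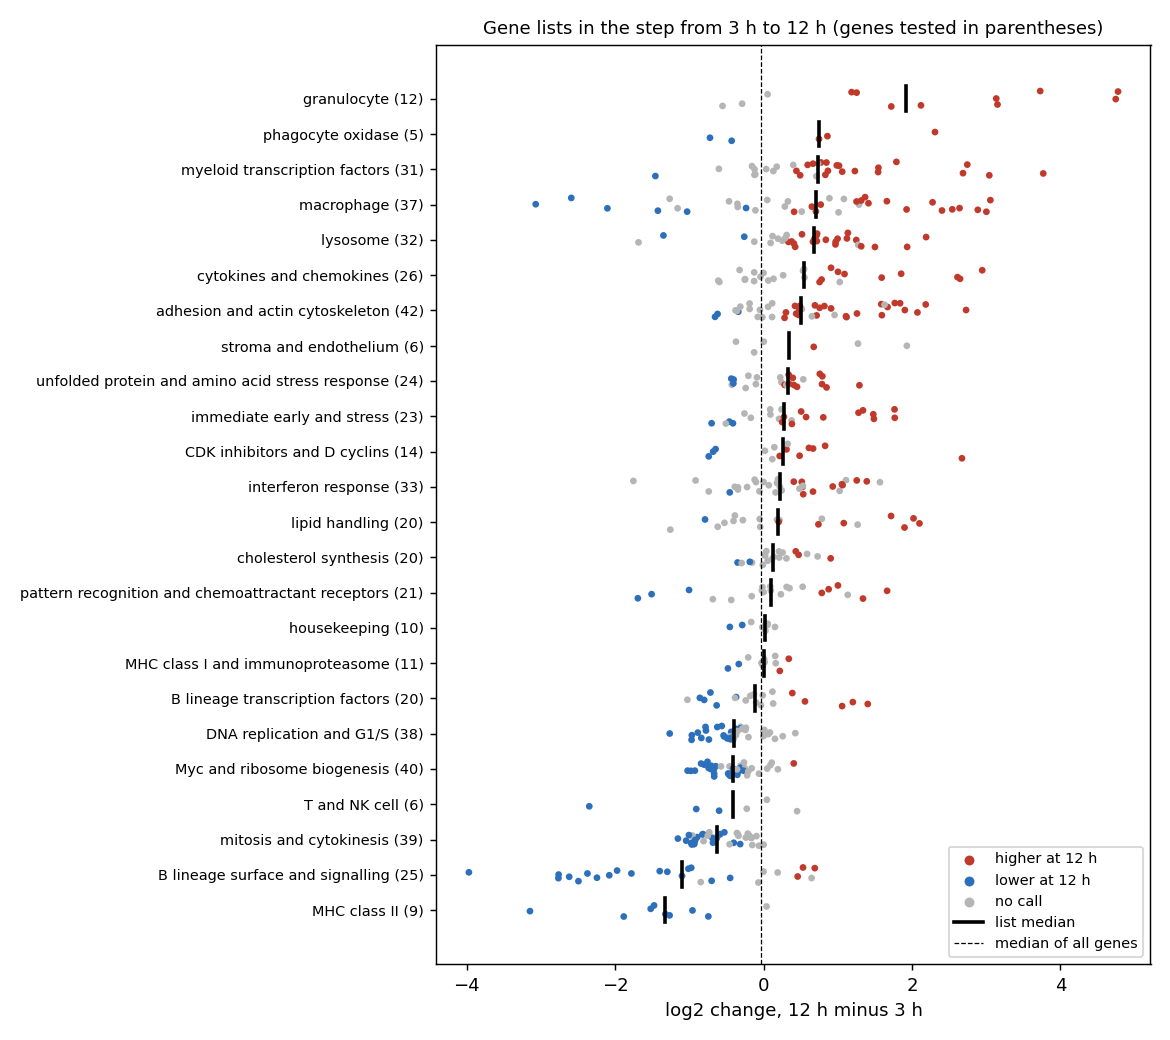
Log2 change of each gene tested (points) in the lists with at least 5 genes tested, ordered by list median from granulocyte genes at the top (1.92) to MHC class II genes at the bottom (-1.32). Red points are called higher at 12 h, blue points lower, grey points not called; black ticks are list medians and the dashed line is the median of all genes tested (-0.04).

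Scaling to the poly-A spike-in transcripts kept the sign of every median in the plot by list, but thinned the calls. It left 7 of 14 granulocyte genes tested under that scaling higher, 9 of 37 macrophage genes higher and 3 lower, 6 of 31 myeloid transcription factors higher, and 10 of 25 B lineage surface genes and 3 of 9 MHC class II genes lower. Under it 3 lysosome genes and 9 adhesion genes were called, all higher.

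B lineage surface and signalling genes fell. Of 25 tested, 17 fell, 3 rose and 5 missed the threshold, against 16.6% of all genes tested in each direction. Their median log2 change was -1.10 (-1.06 over 22 genes with bounds). With any 1 of the 4 arrays left out, 16 or 17 fell and 3 rose. On both 12 h arrays 17 of the 25 genes with a probe set lay above the filter level, and on both 3 h arrays 22. The list's summed signal was 56907 and 57036 at 12 h against 84607 and 83154 at 3 h. Il7r, the interleukin-7 receptor chain on which pre-B cells depend, read 330 and 396 at 12 h against 1772 and 1659 at 3 h, and fell by 2.25 ± 0.11 (adjusted p = 1.44e-05). Vpreb3, a partner of the pre-B cell receptor, read 1002 and 1009 at 12 h and 6685 and 6983 at 3 h, and fell by 2.76 ± 0.11. Cr2, the complement receptor of mature B cells, had 61.2 and 16 at 12 h, under the filter level, and 491 and 491 at 3 h, and was at least 6.58-fold lower (adjusted p = 0.00192).

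Dimmer members of the list had smaller bounds. Dntt, the polymerase that adds bases at V(D)J joints, was at the floor of 16 on both 12 h arrays and read 105 and 92.0 at 3 h, at least 1.32-fold lower (adjusted p = 0.0041). Ms4a1, the CD20 gene, read 53.3 and 16 at 12 h against 188 and 209 at 3 h, at least 2.65-fold lower (adjusted p = 0.036). Its call was lost without the second 12 h array (adjusted p = 0.186) and without either 3 h array (0.107 and 0.124). Rag1 and Rag2, the recombinase genes, were under the filter level on all 4 arrays, with Rag2 at the floor throughout. Vehicle C10 read 4927 and 4904 for Rag1 and 1330 and 1252 for Rag2, so both were already under the filter level when the step began. The 3 risen members, named after their values were seen, were Cd93, Syk and Cd79b, and Cd79b, a chain of the B cell receptor, read 1951 and 2154 at 12 h against 1447 and 1535 at 3 h.

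Of 20 B lineage transcription factors tested, 5 rose, 5 fell and 10 did not pass, against 16.6% of all genes tested in each direction, with a median of -0.11. Without either 12 h array 3 rose and 4 fell, and without either 3 h array 4 rose and 3 fell. The risen genes were Pax5, Irf8, Spib, Erg and Lef1, and the fallen ones Ebf1, Irf4 and the E protein genes Tcf3, Tcf4 and Tcf12, of which Erg, Lef1, Irf4 and the E protein genes are named after their values were seen. Ebf1 read 1262 and 1386 at 12 h against 2302 and 2498 at 3 h, and fell by 0.86 ± 0.13. Irf8, which serves B cells and macrophages alike, read 4654 and 4566 at 12 h against 1853 and 2164 at 3 h, a rise of 1.20 ± 0.09. Spib, a PU.1 relative of B cells, read 453 and 451 at 12 h and 247 and 191 at 3 h, a rise of 1.06 ± 0.15. Vehicle C10 stood at 14861 and 15174 for Irf8 and 2359 and 2457 for Spib, so both 12 h readings were above a 3 h low and under the vehicle level.

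Pax5 followed the same shape on weaker signals. It read 168 and 237 at 12 h against 78.4 and 72.6 at 3 h, where 1 array was under the filter level, so the fitted rise of 1.40 ± 0.29 is uncertain (adjusted p = 0.008). Without the second 12 h array the rise was 1.16 and no longer passed (adjusted p = 0.0524). Vehicle C10 read 426 and 556.

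Genes of MHC class II presentation, shared by B cells and macrophages, fell almost throughout. Of 9 tested, 8 fell and none rose, against 16.6% of all genes tested in each direction. The median was -1.32 (-1.40 over 8 genes without the 1 dim in all 4 arrays), and 6 to 8 fell with any 1 of the 4 arrays left out. H2-DMb2, a subunit of the peptide-loading chaperone, read 79.2 and 93.1 at 12 h against 623 and 930 at 3 h, and fell by 3.15 ± 0.18. Cd74, the invariant chain, read 1136 and 1194 at 12 h against 3310 and 3374 at 3 h, and fell by 1.52 ± 0.08. H2-Aa and H2-Eb1, classical chains, read 404 and 246 and 468 and 502 at 12 h against 1123 and 1204 and 1389 and 1308 at 3 h, and fell, with log2 changes of -1.88 ± 0.28 and -1.48 ± 0.11. The member with no call, named after its values were seen, was Ciita, the class II transactivator, with 55.5 and 43.6 at 12 h against 50.2 and 45.6 at 3 h, under the filter level on all 4 arrays.

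Class II genes parted in what came later. Cd74 read 13710 and 13856 at 24 h and 28049 and 28322 at 48 h, above vehicle C10 at 11051 and 12142. H2-DMb2 read 1053 and 1109 at 24 h and 1293 and 1077 at 48 h. H2-Aa, in contrast, read 49.3 and 66.8 at 24 h, under the filter level, and 65.2 and 94.1 at 48 h. Both 12 h arrays of Cd74 and H2-DMb2 lay below every other C10 array, whereas those of H2-Aa lay above the 24 h and 48 h arrays.

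Of 11 MHC class I and immunoproteasome genes tested, 2 rose and 2 fell, shares near the 16.6% of all genes tested in each direction, with a median of 0.01 that turned negative under median centring, with a gene's probe sets averaged, and without the first 12 h or the first 3 h array. Psmb8, an immunoproteasome subunit, fell by 0.48 ± 0.08 and Tap2, a peptide transporter subunit, rose by 0.34 ± 0.07. The call of Tap2 was lost without the first 12 h array (adjusted p = 0.0552). Psmb9, with -0.33 ± 0.08, lost its call without either 12 h array or the second 3 h array (adjusted p from 0.0566 to 0.0776), and H2-D1, with 0.22 ± 0.06, with any 1 of the 4 arrays left out (0.079 to 0.141). With the mean of its probe sets, H2-D1 stood at -0.012.

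Beyond the lists, the largest measured fall was that of Pde2a, which encodes a phosphodiesterase that degrades cyclic nucleotides. It read 1187 and 946 at 12 h against 13171 and 13514 at 3 h, and fell by 3.65 ± 0.11 on the log2 scale (adjusted p = 2.57e-06). Serpinf1, the gene of pigment epithelium-derived factor, read 185 and 229 at 12 h and 1846 and 2091 at 3 h, and fell by 3.26 ± 0.11. Both were higher again at 24 h, with 5097 and 5513 for Pde2a and 3099 and 2976 for Serpinf1. Txnrd3, a thioredoxin reductase gene, Ptprcap, which encodes a partner of the phosphatase CD45, and Hdac9, a class IIa histone deacetylase gene, fell and stayed low afterwards, with log2 changes of -2.56 ± 0.14, -2.53 ± 0.12 and -2.51 ± 0.11. Cd37, a tetraspanin gene of B cells, fell by 2.51 ± 0.10, to 1262 and 1424 at 12 h, against 7326 and 7913 at 3 h.

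Calhm6 fell by 2.55 ± 0.12, to 120 and 99.2 at 12 h, against 643 and 640 at 3 h. Genes that dropped under the filter level at 12 h included Emid1, at least 7.12-fold lower (adjusted p = 0.000468), Cdh17, a cadherin gene, at least 5.97-fold lower (adjusted p = 0.0002), Crisp3, at least 5.52-fold lower (adjusted p = 0.00023), and Ptpn22, a phosphatase gene of lymphocyte signalling, at least 5.46-fold lower (adjusted p = 0.00108). Their 3 h signals lay between 389 and 598. On the rising side, Apoc1, an apolipoprotein gene, read 813 and 719 at 12 h against 26.6 and 72.2 at 3 h, at least 10.2-fold higher (adjusted p = 0.000249), and Tgm1, a transglutaminase gene, 636 and 698 against 60.8 and 44.9, at least 8.93-fold higher (adjusted p = 7.8e-06).

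No inflammatory mediator on the list fell. Of 26 cytokine and chemokine genes tested, 10 rose and 16 missed the threshold, against 16.6% of all genes tested in each direction. The median was 0.54, and 9 or 10 rose with any 1 of the 4 arrays left out. Il1b, which encodes interleukin-1 beta, read 2412 and 2684 at 12 h against 386 and 427 at 3 h, a rise of 2.65 ± 0.16. Il1rn, its receptor antagonist, read 597 and 569 at 12 h and 116 and 78.5 at 3 h, a rise of 2.61 ± 0.49. Ccl6, another myeloid chemokine, rose by 1.85 ± 0.12. Both interleukin genes went on upward, and Il1rn read 15755 and 14796 at 24 h and Il1b 17204 and 15674.

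Of 21 receptors for microbes and chemoattractants tested, 5 rose and 3 fell, shares near the 16.6% of all genes tested in each direction. The risen genes were Tlr2, Tlr6, Nlrp3, Ccr1 and Gpr84 and the fallen genes were Cxcr4, Il1r2 and Tlr1. Tlr6, Nlrp3, Ccr1 and Tlr1 are named after their values were seen. Of the 21, 8 were under the filter level on all 4 arrays, with a median of 0.10 (0.23 over 13 genes with bounds). Tlr2, a receptor for bacterial lipopeptides, read 3997 and 4004 at 12 h against 1341 and 1187 at 3 h, a rise of 1.66 ± 0.18. Gpr84, a receptor for medium-chain fatty acids, read 8291 and 8412 at 12 h against 3367 and 3231 at 3 h, a rise of 1.34 ± 0.16, and declined after 12 h to 2424 and 2594 at 48 h. Cxcr4, which holds B cell precursors in the bone marrow, read 412 and 504 at 12 h against 1609 and 1352 at 3 h, and fell by 1.69 ± 0.19. Il1r2, the decoy receptor of interleukin-1, was at least 1.89-fold lower (adjusted p = 0.0157), a call lost with any array but the first 3 h array left out (adjusted p from 0.0578 to 0.0728).

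Among 23 immediate early and stress genes tested, 12 rose and 3 fell, against 16.6% of all genes tested in each direction. The median was 0.28, and 8 or 9 rose with any 1 of the 4 arrays left out. The falls, named after their values were seen, were Dusp4, Gadd45a and Spred1. Dusp5, a phosphatase that feeds back on ERK, read 1535 and 1680 at 12 h against 423 and 525 at 3 h. Btg2, an antiproliferative gene, read 2253 and 1933 at 12 h against 525 and 719 at 3 h. Both rose by 1.77 ± 0.17 and vehicle C10 read above the 3 h arrays for both, at 1520 and 1997 for Dusp5 and 3081 and 3695 for Btg2. Socs3, which restrains cytokine signalling, rose by 1.48 ± 0.17. Hspa1a, a heat shock gene, was at least 1.20-fold higher (adjusted p = 0.0244) and lost its call with any 1 of the 4 arrays left out (0.0602 to 0.113).

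No cell cycle gene listed under replication or mitosis rose, and many fell, against 16.6% of all genes tested in each direction. None of 38 genes of DNA replication and the G1/S transition rose, 18 fell and 20 did not pass, with a median of -0.40. None of 39 genes of mitosis and cytokinesis rose, 19 fell and 20 did not pass, with a median of -0.63. With any 1 of the 4 arrays left out, 12 to 14 replication genes and 10 to 14 mitosis genes fell, with 10 without the first 12 h array. Under spike-in scaling none of either list was called, while the medians, at -0.42 and -0.66, kept their sign. For 37 of the 39 mitosis genes both 12 h arrays lay below both 3 h arrays (36.1% of all genes did so).

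Tk1, the thymidine kinase of S phase, read 1335 and 1405 at 12 h against 3420 and 3167 at 3 h, and fell by 1.26 ± 0.11 (adjusted p = 0.000221). Ccna2, the cyclin of S and G2 phases, read 4036 and 4018 at 12 h and 8177 and 7272 at 3 h, and fell by 0.94 ± 0.08. Mki67, the Ki-67 proliferation marker, read 7710 and 7986 at 12 h against 10078 and 10659 at 3 h, and fell by 0.40 ± 0.09 (adjusted p = 0.0131), lost without the first 12 h array (0.0703) and without the second 3 h array (0.0683). All 3 genes were nevertheless brighter at 12 h than in vehicle C10, where Tk1 read 473 and 524, Ccna2 2345 and 2478 and Mki67 5052 and 4899. At 48 h Ccna2 read 57.9 and 58.6, Tk1 was at 16 on both arrays and Mki67 read 69.6 and 78.0, close to or under the filter level.

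Among mitotic genes, Ttk, a spindle checkpoint kinase gene, Kif23, a kinesin gene of the midbody, Spc25, a kinetochore gene, and Nusap1, a spindle gene, fell, with log2 changes of -1.15 ± 0.22, -1.04 ± 0.13, -1.01 ± 0.13 and -0.97 ± 0.12. Ccne2, a G1/S cyclin gene, fell by 0.89 ± 0.20 (adjusted p = 0.0114) and lost its call without the first 12 h array (0.0605) and without the first 3 h array (0.05). Pola1, the catalytic subunit of the priming polymerase, read 846 and 908 at 12 h against 1883 and 1556 at 3 h, and fell by 0.97 ± 0.20. Gins3, a subunit of the replicative helicase, read 329 and 357 at 12 h and 767 and 588 at 3 h, and fell by 0.97 ± 0.23 (adjusted p = 0.0146). The call of Gins3 was lost without either 12 h array or the first 3 h array (adjusted p from 0.0505 to 0.0852).

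The E2F motif TTTNNCGC, searched on both strands in the same 250 bases, was present in 10 of 32 promoters of the replication list (31.25%), against 7.40% of all genes tested, 6.04% of genes called higher and 9.62% of those called lower. Among falls of 2-fold or more the share was 3.24%, and among all 27025 promoters listed 4.39%. In the mitosis list 1 of 34 promoters held it. Median GC content was 57.4% in the replication list, 60.6% in the mitosis list, 55.4% for falls of 2-fold or more and 59.6% over all genes tested. The promoters of Pola1, at chrX:93632156-93632405 on the minus strand, and of Gins3, at chr8:95633309-95633558 on the plus strand, are shown as the 2 replication genes with a match among the 4 largest falls of the list. Capitals mark the match, which starts at base -138 in Pola1 and at base -41 in Gins3 and lies on the opposite strand in both (GRCm38.p6, from RefSeq, 5′ to 3′ in the direction of the gene).
Pola1: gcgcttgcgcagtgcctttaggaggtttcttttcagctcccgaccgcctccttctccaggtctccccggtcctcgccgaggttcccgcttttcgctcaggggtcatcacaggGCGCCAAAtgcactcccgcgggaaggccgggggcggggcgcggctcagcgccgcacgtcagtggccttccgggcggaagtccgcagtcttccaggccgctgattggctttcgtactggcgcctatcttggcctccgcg
Gins3: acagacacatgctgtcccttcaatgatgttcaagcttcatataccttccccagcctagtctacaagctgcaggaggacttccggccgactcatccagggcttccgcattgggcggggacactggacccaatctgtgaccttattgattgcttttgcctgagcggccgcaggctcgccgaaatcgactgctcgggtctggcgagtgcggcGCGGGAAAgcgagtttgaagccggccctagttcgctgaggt

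Of 14 CDK inhibitor, pocket protein and D cyclin genes tested, 7 rose and 3 fell, with a median of 0.26. The shares of all genes tested were 16.6% in each direction. The risen genes included Ccnd1 and Ccnd2, cyclins that drive G1 and are named after their values were seen. With any 1 of the 4 arrays left out, 5 or 6 rose, and 1 fell except without the first 3 h array, when 2 fell. Cdkn1a, an inhibitor of cyclin-dependent kinases, read 4017 and 3551 at 12 h against 547 and 641 at 3 h, a rise of 2.67 ± 0.12 (adjusted p = 1.02e-05). Vehicle C10 read 1760 and 2075, so the 12 h arrays lay above and the 3 h arrays below those of vehicle C10. Cdkn2a rose by 0.83 ± 0.11. Its neighbour Cdkn2b had -0.68 ± 0.18 (adjusted p = 0.0226) and lost its call without either 12 h array or the second 3 h array (0.0769 to 0.0947), and Rbl1, a relative of the retinoblastoma gene, fell by 0.74 ± 0.10.

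Ribosome biogenesis genes fell while Myc, their best known activator, rose slightly. Of the 40 genes of this list, all tested, 24 fell and 1, Myc itself, rose, against 16.6% of all genes in each direction. The median was -0.41, and 16 to 20 fell with any 1 of the 4 arrays left out. Myc read 1762 and 1665 at 12 h against 1258 and 1327 at 3 h, a rise of 0.41 ± 0.07 (adjusted p = 0.00419), far under its vehicle signals of 7676 and 7956. Ddx21, a nucleolar helicase gene, read 1902 and 2009 at 12 h against 4002 and 3712 at 3 h, and fell by 0.98 ± 0.10. Nle1, Nolc1 and Nop56, which act in ribosome assembly and in the nucleolus, fell, with log2 changes of -1.02 ± 0.16, -0.93 ± 0.10 and -0.84 ± 0.10. Spike-in scaling left none of the 40 called, with a median of -0.40.

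**Figure D4:**
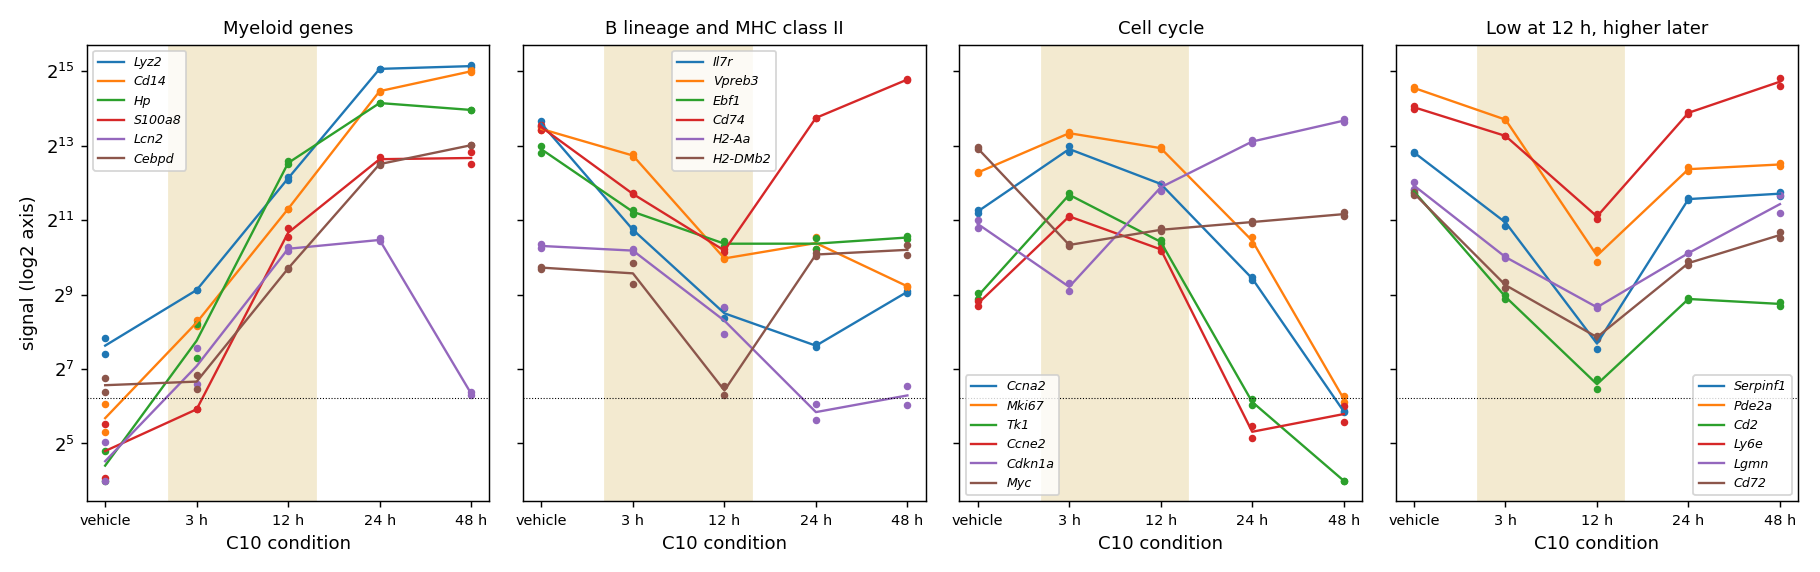
Signal (log2 axis) in vehicle C10 and at 3, 12, 24 and 48 h of estradiol for myeloid genes, for B lineage and MHC class II genes, for cell cycle genes and, in the last panel, for genes chosen after their values were seen because 12 h was their lowest point. Points are arrays, lines join the means of 2 arrays, shading marks the step from 3 h to 12 h and the dotted line is the filter level; Hp and Lyz2 climb through the step, Il7r falls, Cdkn1a turns upward from its 3 h low, and Pde2a and Serpinf1 return after 12 h.

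Genes of the lysosome, the digestive compartment of phagocytes, rose. Of 32 tested, 21 rose and 2 fell, against 16.6% of all genes tested in each direction. The median was 0.68 (0.52 over 31 genes with bounds), and 17 to 21 rose with any 1 of the 4 arrays left out. Ctsd, the protease cathepsin D, read 5867 and 6208 at 12 h against 1505 and 1655 at 3 h, a rise of 1.94 ± 0.08. Psap, the precursor of the saposins, read 6402 and 5977 at 12 h and 2349 and 2033 at 3 h, a rise of 1.50 ± 0.10. Tfec, a transcription factor of the MiT family, was at least 1.10-fold higher on dim signals (adjusted p = 0.0057). The 2 falls were those of Lgmn, the protease legumain, by 1.35 ± 0.15, and of Gusb, a lysosomal glucuronidase gene named after its value was seen, by 0.26 ± 0.07. With any 1 of the 4 arrays left out 1 gene of the list was called lower. Psap stood near its vehicle level of 6741 and 6436 at 12 h, whereas Ctsd had left its vehicle level of 1255 and 1320.

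Among 42 genes of adhesion and the actin cytoskeleton tested, 24 rose and 3 fell, against 16.6% of all genes tested in each direction. The median was 0.50 (0.49 over 41 genes with bounds), and 21 or 22 rose with any 1 of the 4 arrays left out. The falls, named after their values were seen, were Myo5a, Itga6 and Itga4, and 1 gene was called lower without the first 12 h or the first 3 h array and 2 without the others. Flna, the actin crosslinker filamin A, read 9355 and 9648 at 12 h against 2165 and 2015 at 3 h, a rise of 2.19 ± 0.07 (adjusted p = 4.06e-06). Cnn2, a calponin gene, read 11755 and 11556 at 12 h and 2617 and 2928 at 3 h, a rise of 2.07 ± 0.08. Both were brighter at 12 h than at 48 h, where Flna read 5375 and 5392 and Cnn2 4960 and 5097. Anxa5, which binds phosphatidylserine, rose by 1.90 ± 0.14, and Anxa2, another annexin gene, was at least 5.68-fold higher (adjusted p = 0.000408).

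Among 20 lipid genes tested, 7 rose and 1 fell, against 16.6% of all genes tested in each direction, with a median of 0.19. The fall was that of Hilpda, named after its value was seen, and 1 gene of the list was called lower without the second 12 h array and none without any of the other 3. Dgat1, an enzyme of triglyceride synthesis, read 2829 and 2631 at 12 h against 597 and 678 at 3 h, a rise of 2.10 ± 0.10. Plin2, which coats lipid droplets, read 5151 and 4924 at 12 h against 1246 and 1236 at 3 h, a rise of 2.02 ± 0.07. Ptgs2, whose promoter is shown above, read 1389 and 1426 at 12 h against 397 and 358 at 3 h, a rise of 1.90 ± 0.28. Abca1, the cholesterol exporter, was at least 1.94-fold higher (adjusted p = 0.0018). Of 20 genes of cholesterol synthesis, 3 were higher and 2 lower, shares under the 16.6% of all genes tested in each direction, with a median of 0.13. The other fall was Msmo1, named after its value was seen. Mvd, Fdps and Insig1 rose by 0.90 ± 0.14, 0.47 ± 0.09 and 0.43 ± 0.07, and Hsd17b7 had -0.35 ± 0.07, which no longer passed without the first 12 h array (adjusted p = 0.0541).

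Of 33 interferon response genes tested, 10 rose and 1 fell, against 16.6% of all genes tested in each direction. The other 22 had no call, a share near that of all genes, with 7815 of 11696. The fall was that of Bst2, which tethers virions and is named after its value was seen, by 0.46 ± 0.09. Of the 33, 7 were under the filter level on all 4 arrays, and the median was 0.22 (0.23 over 26 genes with bounds). With any 1 of the 4 arrays left out, 5 to 9 rose, with 5 without either 12 h array. Stat2, a subunit of the interferon-activated factor, read 291 and 305 at 12 h against 170 and 119 at 3 h, a rise of 1.07 ± 0.17. Dhx58, a helicase gene of RNA sensing, rose by 1.06 ± 0.22 (adjusted p = 0.00929), lost without the first 12 h array (0.0567). Irf7, the factor that amplifies interferon production, read 89.2 and 102 at 12 h and 42.9 and 37.3 at 3 h, at least 1.28-fold higher (adjusted p = 0.0385), and its call was lost with any 1 of the 4 arrays left out (adjusted p from 0.0965 to 0.146). Ifit1 was called higher with 51.5 and 34.2 at 12 h against 16 and 16 at 3 h, all under the filter level, so no fold is given. At 48 h, Irf7 read 15434 and 18193 and Ifit1 5444 and 5278.

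Genes of the unfolded protein and amino acid stress response rose more often than they fell. Of 24 tested, 11 rose and 3 fell, against 16.6% of all genes tested in each direction, with a median of 0.32. The falls, named after their values were seen, were Asns, Shmt2 and Canx. In turn, 10 rose without the first 3 h array, 7 without the first 12 h or the second 3 h array and 6 without the second 12 h array, and 4 rose when the spread was taken from the 4 arrays alone. Xbp1, a factor of secretory cells, and Sdf2l1, a chaperone partner in the endoplasmic reticulum, each rose by 0.79, with errors of 0.10 and 0.13. Slc3a2, the heavy chain of an amino acid transporter, rose by 0.85 ± 0.09. Ddit4, an inhibitor of mTORC1, had 1.29 ± 0.30 (adjusted p = 0.0136) and lost its call with any array but the first 3 h array left out (0.0585 to 0.0591).

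Markers of other cell types gave little signal. Of 16 T and NK cell genes with a probe set, 4 lay above the filter level on both 12 h arrays and 4 on both 3 h arrays, with a summed signal of 1268 and 1236 at 12 h against 1479 and 1890 at 3 h, and Cd3e, Cd4 and Gata3 were at the floor on all 4. Of 6 tested, 3 fell, against 16.6% of all genes tested. Cd2, an adhesion receptor shared with B cell precursors, fell by 2.35 ± 0.10, to 88.2 and 105 at 12 h, against 471 and 513 at 3 h. Cd5 had -0.60 ± 0.14 and lost its call without the first 12 h array (adjusted p = 0.0696) or the second 3 h array (0.0694), and Cd28 was under the filter level on all 4 arrays and lost its call with any of them left out. Summed signals at 12 h and at 3 h were 395 and 203 against 255 and 402 for 7 erythroid genes, 500 and 573 against 428 and 598 for 13 mast cell, basophil and eosinophil genes, and 973 and 814 against 794 and 766 for 11 dendritic cell genes.

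The remaining marker sums at 12 h and at 3 h were 503 and 426 against 420 and 366 for 6 megakaryocyte genes, 2545 and 2431 against 1379 and 1298 for 12 genes of stroma and endothelium, and 122 and 164 against 195 and 124 for 6 hepatocyte genes. Mcpt8, Ccr7, Ccl17, Vwf and Fgb were at the floor on all 4 arrays. Il5ra, an eosinophil receptor gene, was at least 1.79-fold lower (adjusted p = 0.000408), Bst1 rose by 0.76 ± 0.14, and Pecam1, shared by endothelium and leukocytes, had 0.68 ± 0.20 and lost its call with any array but the first 3 h array left out (adjusted p from 0.091 to 0.185). No erythroid or megakaryocyte gene was called, none of the hepatocyte genes passed the filter, and the part of any of these cell types in the changes above was not tested.

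Housekeeping genes were close to level. Of 10 tested, none rose and 2 fell, against 16.6% of all genes tested in each direction. The median of 0.02 turned negative under median centring, with a gene's probe sets averaged and without the second 12 h or the first 3 h array. Hprt had -0.29 ± 0.06, lost without the second 12 h array (adjusted p = 0.0587), and Tbp had -0.45 ± 0.13, lost with any array but the second 3 h array left out (0.088 to 0.153).

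The later position of the same genes was read from comparisons whose means share no array with the step. The spread of each gene was shared, since it came from the same fit. Of the 1944 genes that rose in the step, 1177 (60.55%) were higher at 48 h than in vehicle C10 and 343 (17.64%) were lower, against 24.2% and 38.2% of all genes tested. Of the 1937 genes that fell, 1472 (75.99%) were lower at 48 h than in vehicle C10 and 176 (9.09%) were higher. The 1177 and the 1472 genes made up 41.58% of all genes higher and 32.94% of all genes lower at 48 h against vehicle C10. Of the genes that rose 2-fold or more in the step, 67.52% ended above vehicle C10, and of those that fell 2-fold or more, 70.61% ended below it. Across the 11696 genes, which are not independent, Pearson's r between the 2 sets of log2 changes was 0.44 and Spearman's rho 0.43.

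A minority of these genes went on in the same direction from 24 h to 48 h. The shares that went on and the shares that turned back were both larger than among all genes tested. The spread of each gene came from the same fit in every comparison, so a gene of low spread is more easily called in each. A larger share than among all genes therefore does not by itself show that changes went on, and the part of the shared spread was not tested. Of the genes that rose from 3 h to 12 h, 285 (14.66%) were higher at 48 h than at 24 h and 381 (19.60%) were lower, against 9.47% and 17.9% of all genes tested. Of those that fell, 617 (31.85%) were lower and 220 (11.36%) were higher. Among the 585 genes that rose 2-fold or more, 15.04% were higher and 18.12% lower at 48 h than at 24 h. Among the 347 that fell 2-fold or more, 23.05% were lower and 21.04% higher, so strong falls turned back nearly as often as they went on. The 285 genes made up 25.72% of all genes higher in the later step, and the 617 genes 29.45% of all genes lower in it. The correlation between the log2 changes of the 2 steps was weak, with r = 0.05 and rho = 0.08 over 11696 genes. All 39 mitosis genes were lower in both later comparisons, and 23 of the 33 interferon genes were higher at 48 h than at 24 h.

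**Figure D5:**
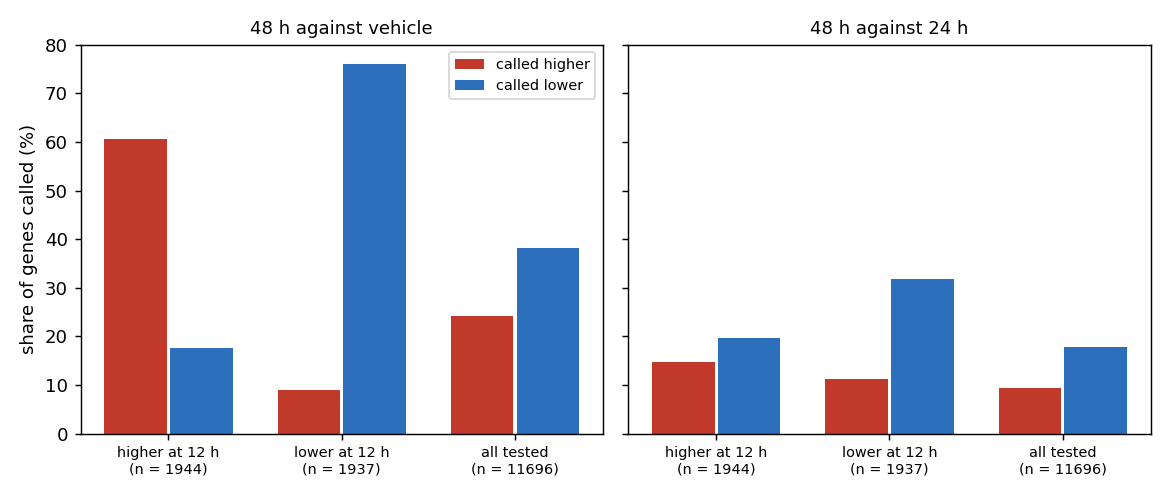
Share of genes called higher (red) and lower (blue) at 48 h against vehicle C10 (left panel) and at 48 h against 24 h (right panel), for the 1944 genes that rose from 3 h to 12 h, the 1937 that fell and all 11696 tested. In the left panel 60.55% of the risen genes were higher and 75.99% of the fallen ones lower, and in the right panel no bar exceeds 31.85%.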

How the data were processed

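One-colour arrays with biotin-labelled total RNA were measured in 6 groups of 2, grouped by title. The deposited values are intensities on a linear scale, 1 per probe set, already scaled by the authors, since the mean after trimming 2% at each end is equal on every array. How probe sets were summarised and background removed is not stated in the labels or the file. A floor of 16 was set after quantile normalisation over the 12 arrays of the deposited intensities, and log2 was taken. Of 45101 probe sets, 34945 named 1 gene in GEO's platform annotation, 932 several and 9160 none. The probe set with the highest mean stood for a gene. For 28 genes at least 1 probe set was called higher and another lower. Of 18193 genes, 11696 exceeded log2 6.22 (a signal of 74.6, the filter level) on at least 2 arrays. limma 3.58.1 in R 4.3.3 fitted 1 mean per group over all arrays, with 6 residual degrees of freedom, and a call was a Benjamini-Hochberg adjusted p below 0.05 over all genes tested. The number of arrays limits precision.

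Fold bounds compared the mean log2 signal of the brighter time with the filter level, which stood in for both dim arrays. Named genes were the 10 largest measured and 5 largest bounded changes in each direction, up to 4 largest called members of each of 29 lists, and a fixed set of regulators and markers. Members and lists were chosen with earlier results of these data known. On simulated data with known changes for this comparison over 11696 genes, 25 of 50 genes at a log2 change of 1, 30 of 50 at -1, 40 of 50 at 2 and 39 of 50 at -2 were called, with 7 of 11496 unchanged genes. No other genes were changed, whereas 33.2% of genes were called in the real data. The adjusted p threshold was therefore stricter in the simulation, and these shares do not give the sensitivity of the real comparison. Alternatives covered normalisation, filter, probe-set rule, floor, prior, arrays in the fit, the replicate number and each array left out.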

Additional observations from a re-analysis of the deposited data

Results flagged for a closer look

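A control signal outside the gene comparisons stood out. The 5′ 18S rRNA control probe set read 1823 on the second 12 h array and 9866 on the second 3 h array, above both vehicle C10 arrays, at 1140 and 199. Without the second 12 h array 1435 genes were higher and 1295 lower, and without the second 3 h array 1653 were higher and 1318 lower. The part of this signal in the changes of named genes was not tested.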

How the results depend on the processing

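With 1 value per gene, no gene called from 3 h to 12 h was called in the opposite direction under any of 21 alternatives, but with each probe set on its own the calls of 28 genes went up on at least 1 probe set and down on another. Of the 116 named genes called, 96 kept their call without each of the 4 arrays in turn and 47 under every alternative. Scaling to the spike-in transcripts gave 280 genes higher and 139 lower from 3 h to 12 h, 190 and 126 from 24 h to 48 h, and 1020 lower at 48 h against vehicle C10, and ended 55 named calls. The fit to the 4 arrays alone gave 1252 higher and 1193 lower, with fewer samples for the spread. A minimum log2 change of 1 gave 121 and 60 at 12 h against 3 h, 38 and 118 at 48 h against 24 h, and 923 and 1363 at 48 h against vehicle C10. Each probe set on its own gave 5293 and 7217 at 48 h against vehicle C10, over more features. Median centring gave 1641 higher and 2143 lower, so higher genes were 43.37% of calls. Leaving out 1 array gave 1428 to 1653 higher and 1285 to 1320 lower at 12 h against 3 h, 1023 to 1092 and 1928 to 1990 at 48 h against 24 h, and 2778 to 2847 and 4430 to 4460 at 48 h against vehicle C10. H2-D1 turned to -0.012 with the mean of its probe sets. Except where a smaller sample or another number of features accounts for it, the cause was not tested. Same-numbered arrays did not deviate together (r from -0.03 to 0.04 over 15 pairs of groups), and the fit with the replicate number as a block gave 1881 higher and 1816 lower, ending no named call. Dim genes limit what can be read, since 740 of the genes tested were under the filter level on all 4 arrays.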

Other observations

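Some genes had their extreme at 12 h, a pattern chosen after the values were seen. Both 12 h arrays lay above every other array for 294 of the 1944 genes called higher (15.12%), and by a margin of at least 2-fold for 11. Among all genes tested 584 had this pattern (4.99%). That share is not a like base, since a higher call already favours 12 h arrays above both 3 h arrays. By definition the 584 all lie among the 3652 genes with both 12 h arrays above both 3 h arrays. Ptgr1, which encodes an NADPH-dependent reductase of prostaglandins and leukotrienes, read 27093 and 27600 at 12 h against 9321 and 8524 at 3 h, and 11933 and 11886 at 24 h. Pir, the pirin gene, read 1055 and 1106 at 12 h and 274 and 286 at 3 h, and 253 and 267 at 24 h. Ada, adenosine deaminase, read 2868 and 2925 at 12 h against 1162 and 1259 at 3 h, and was down to 141 and 162 at 48 h. Atp1b1, a subunit of the sodium pump, read 5813 and 5765 at 12 h against 2092 and 1793 at 3 h, and 188 and 193 at 48 h. These genes thus had a peak in the middle of the course.

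Both 12 h arrays lay below every other array for 307 of the 1937 genes called lower (15.85%), and by at least 2-fold for 33. Among all genes tested 516 had this pattern (4.41%), again not a like base, since a lower call already favours it. By definition the 516 all lie among the 4228 genes with both 12 h arrays below both 3 h arrays. Ly6e, a membrane-anchored protein gene, read 2082 and 2318 at 12 h against 9920 and 9775 at 3 h, and 25072 and 29212 at 48 h, where vehicle C10 read 17204 and 16414. Cd52, a small surface glycoprotein gene of leukocytes, read 2229 and 2354 at 12 h and 5357 and 5576 at 3 h, and 24530 and 25512 at 48 h. Ddc, dopa decarboxylase, was at the floor of 16 on both 12 h arrays against 305 and 346 at 3 h, at least 4.35-fold lower, and read 225 and 204 at 24 h. Its vehicle signal of 6983 and 7134 was not regained.

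Neighbouring genes sometimes moved together. In RefSeq's gene order for GRCm38.p6, 5 runs of at least 3 adjacent tested genes were all called in the same direction at 2-fold or more. They were H2-Ob, H2-Ab1, H2-Aa and H2-Eb1 on chromosome 17, all lower, and 4 runs of higher genes. Those were Lgals8, Edaradd, Ero1b and Gpr137b-ps on chromosome 13, Ninj1, Card19 and Susd3 on the same chromosome, P2rx7, P2rx4 and Camkk2 on chromosome 5, and Iglon5, Cd33 and Zfp658 on chromosome 7. In the chromosome 7 run, Iglon5 and Cd33 were under the filter level on both 3 h arrays and Zfp658 on 1 array. Whether this is more runs than chance gives was not tested.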
